A study of Homo sapiens with 12 samples.

Results

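The TMED genes encode the p24 family of cargo receptors, and 9 of them (TMED1, TMED2, TMED3, TMED4, TMED5, TMED7, TMED8, TMED9 and TMED10) were followed by name among the 38516 genes of a table of RPKM, read counts divided by the length of the exons and by the depth of the library. The family was chosen by the RPKM of TMED10, which was lower after silencing of HCP5 in both cell lines of the study, so the silencing values of TMED10 are given as a description with no test. The other 8 members came with the family name and were tested. All 9 passed the filter on low values (0.5 RPKM or more in 3 or more libraries), as did 17823 genes in all.

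The libraries were made from KYSE150 and KYSE510, established lines from human ESCC, squamous carcinoma of the esophagus, grown in RPMI-1640 with FBS. Each line had 3 libraries of control cells and 3 of cells in which HCP5, a long non-coding RNA gene, was silenced, 12 libraries in 4 groups. The titles of control libraries begin with shc and those of silenced libraries with sh4, which the labels do not spell out, and the sequence of the reagent is not stated by the labels. Nothing in the labels says that replicates came from separate cultures, so p-values measure the spread between these libraries, which may be technical.

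p24 proteins are small membrane proteins that cycle between the endoplasmic reticulum (ER) and the Golgi. A luminal GOLD domain and a coiled coil face the cargo, which includes glycosylphosphatidylinositol (GPI)-anchored proteins, and a short cytosolic tail binds the coats of transport vesicles, COPII on the way out of the ER and COPI on the way back. They work as complexes of members from different classes: alpha (TMED4 and TMED9), beta (TMED2), gamma (TMED1, TMED3, TMED5 and TMED7) and delta (TMED10), and loss of one partner is known to lower the protein level of others. TMED8 carries a GOLD domain but stands outside these classes.

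The cytosolic tails are shown because they hold the residues that bind the vesicle coats. The stretches below were read from the principal transcripts of GENCODE release 29 on GRCh38, 5′ to 3′ on the coding strand. Capitals mark the codons of a pair of phenylalanines (leucine and phenylalanine in TMED5) and of the paired basic residues, and the run ends with the stop codon where it falls within 30 bases.
TMED10, chr14:75134885-75134914, minus strand: TTCTTCaaggccAAGAAAttgattgagtaa
TMED9, chr5:177595390-177595416, plus strand: TTCTTTgaagccAAGAAGcttgtgtag
TMED4, chr7:44579479-44579505, minus strand: TTCTTTgaggccAAGAAGctggtgtag
TMED2, chr12:123596703-123596729, plus strand: TTTTTTgaagtcCGGAGAgttgtttaa
TMED1, chr19:10832998-10833027, minus strand: TTCTTCcaggacAAGCGCccggtgcccacg
TMED3, chr15:79322170-79322199, plus strand: TTCTTCacagaaAAACGAcccatcagcagg
TMED5, chr1:93154673-93154702, minus strand: CTGTTTgaagatAAGAGGaaaagtagaact
TMED7, chr5:115616224-115616253, minus strand: TTTTTCtcagatAAAAGAaccaccacaact

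TMED10, TMED9 and TMED4 code for a pair of lysines, TMED2 for a pair of arginines, and the 4 gamma members for a lysine followed by an arginine. The first pair is phenylalanine with phenylalanine in 7 of these 8 tails and leucine with phenylalanine in TMED5. In TMED8 no such pair was found in the last 20 codons. The coded proteins had 201 residues for TMED2, 217 for TMED3, 219 for TMED10, 224 for TMED7, 227 for TMED1 and for TMED4, 229 for TMED5, 235 for TMED9 and 325 for TMED8.

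All 9 are protein-coding genes whose spans in the table equal those of GENCODE 29 on GRCh38. TMED10 lies at chr14:75131470-75176631 on the minus strand, with 4974 bases of summed exon. TMED2 lies at chr12:123584531-123598577 and TMED9 at chr5:177592158-177596124, both on the plus strand. TMED4 lies at chr7:44577894-44582287, TMED1 at chr19:10832438-10836318, TMED5 at chr1:93149742-93180728, TMED7 at chr5:115613508-115632992 and TMED8 at chr14:77335021-77377109, all on the minus strand, and TMED3 at chr15:79311062-79427432 on the plus strand. TMED10, TMED3, TMED4, TMED8 and TMED9 share no exon base with another gene of the table. TMED1 shares 776 bases, 51.3% of its exons, with DNM2 on the opposite strand, and TMED7 shares 935 bases, 24.0%, with the readthrough gene TMED7-TICAM2 on the same strand. TMED2 (286 bases) and TMED5 (675 bases) each overlap a gene on the opposite strand by under 8%, and TMED7 another by 225 bases. Whether the counting used strand, and how it treated reads on shared bases, is not given in the sources used here. The values of TMED1 and TMED7 in particular may thus include reads of their neighbours or lack reads of their own.

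Depth, as reads recovered from the RPKM, ran from 20035025 to 22700935 in KYSE150 controls and from 26281327 to 28202422 in the silenced libraries of that line, which were thus all deeper. In KYSE510 it ran from 24055358 to 27513023 in controls and from 21116344 to 24880410 in silenced libraries. The part of this depth difference in the KYSE150 results was not tested. HCP5 itself stood at 0.779, 0.745 and 0.786 RPKM in KYSE150 controls and at 0.315, 0.418 and 0.579 after silencing, 56.8% of control and below every control library. In KYSE510 it stood at 0.914, 1.85 and 1.40 in controls and at 0.505, 0.951 and 0.948 after silencing, 57.6% of control, and the groups of that line overlapped. Within same-numbered pairs HCP5 was lower in 3 of 3 silenced libraries of each line, at 40.5%, 56.1% and 73.7% of control in KYSE150 and at 55.2%, 51.3% and 67.6% in KYSE510. Of all genes tested, 21.8% were lower in 3 of 3 pairs of KYSE510, and the share in KYSE150 is not given here. Neither difference passed after adjustment over all genes tested (limma adjusted p = 0.267 in KYSE150 and 0.646 in KYSE510). Without adjustment the limma p was 0.0442 and 0.0214, where 18.1% and 6.35% of all genes tested had p under 0.05. Between 26 and 147 reads lie behind each HCP5 value. All 10 squamous epithelial markers had at least 1 RPKM in all 12 libraries. Their sums ran from 1120 to 1801 RPKM in KYSE150 controls and from 1394 to 3015 after silencing, and from 1579 to 2115 and from 1947 to 3180 in KYSE510, and the part of this in the results was not tested. The 6 fibroblast markers summed to at most 0.901 RPKM and the 4 endothelial markers to at most 2.09. The 5 leukocyte markers summed to 29.9 to 47.5 RPKM. Among them CD68 alone reached 1 RPKM, with group means of 36.5 to 40.0 RPKM, while the defining marker PTPRC had group means of at most 0.00299 RPKM. Which cells gave the CD68 reads was not tested.

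TMED10, the delta member and a constant partner of TMED2 in p24 complexes, was lower after silencing in both lines. In KYSE150 controls it stood at 19.0, 17.8 and 18.8 RPKM, and after silencing at 8.62, 8.23 and 9.39. In KYSE510 controls it stood at 29.2, 33.0 and 32.8 RPKM, and after silencing at 15.1, 15.8 and 16.5. Every silenced library lay below every control library of its line. The silenced mean was 47.2% of control in KYSE150 (8.74 ± 0.590 against 18.5 ± 0.605 RPKM, SD, n = 3) and 49.9% in KYSE510 (15.8 ± 0.704 against 31.7 ± 2.16, SD, n = 3). Such an order, with all silenced libraries below all controls, was seen in 5.47% of the genes tested in KYSE150 and in 6.87% in KYSE510, and nothing is read from it for TMED10, which was chosen for it.

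Fitted log2 changes of TMED10, on the log2(RPKM + 0.5) scale used throughout, were -1.04 (SE 0.08) in KYSE150 and -0.98 (SE 0.08) in KYSE510, so the lines differed by 0.06 (SE 0.11). Within same-numbered pairs of libraries, the silenced level was 45.5%, 46.1% and 50.02% of control in KYSE150 and 51.8%, 47.8% and 50.3% in KYSE510. Between 1127 and 4493 reads lie behind each value, and the exact 95% Poisson interval of the lowest silenced library in KYSE150 ran from 7.76 to 8.72 RPKM. Such intervals cover counting error only. After centring each library on its median the KYSE150 change was -1.17 in place of -1.04. Silenced KYSE510 cells kept 15.8 RPKM of TMED10, near the 18.5 RPKM of KYSE150 controls. In such bulk libraries, fewer cells with TMED10 RNA and less of it per cell cannot be told apart.

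**Figure D1:**
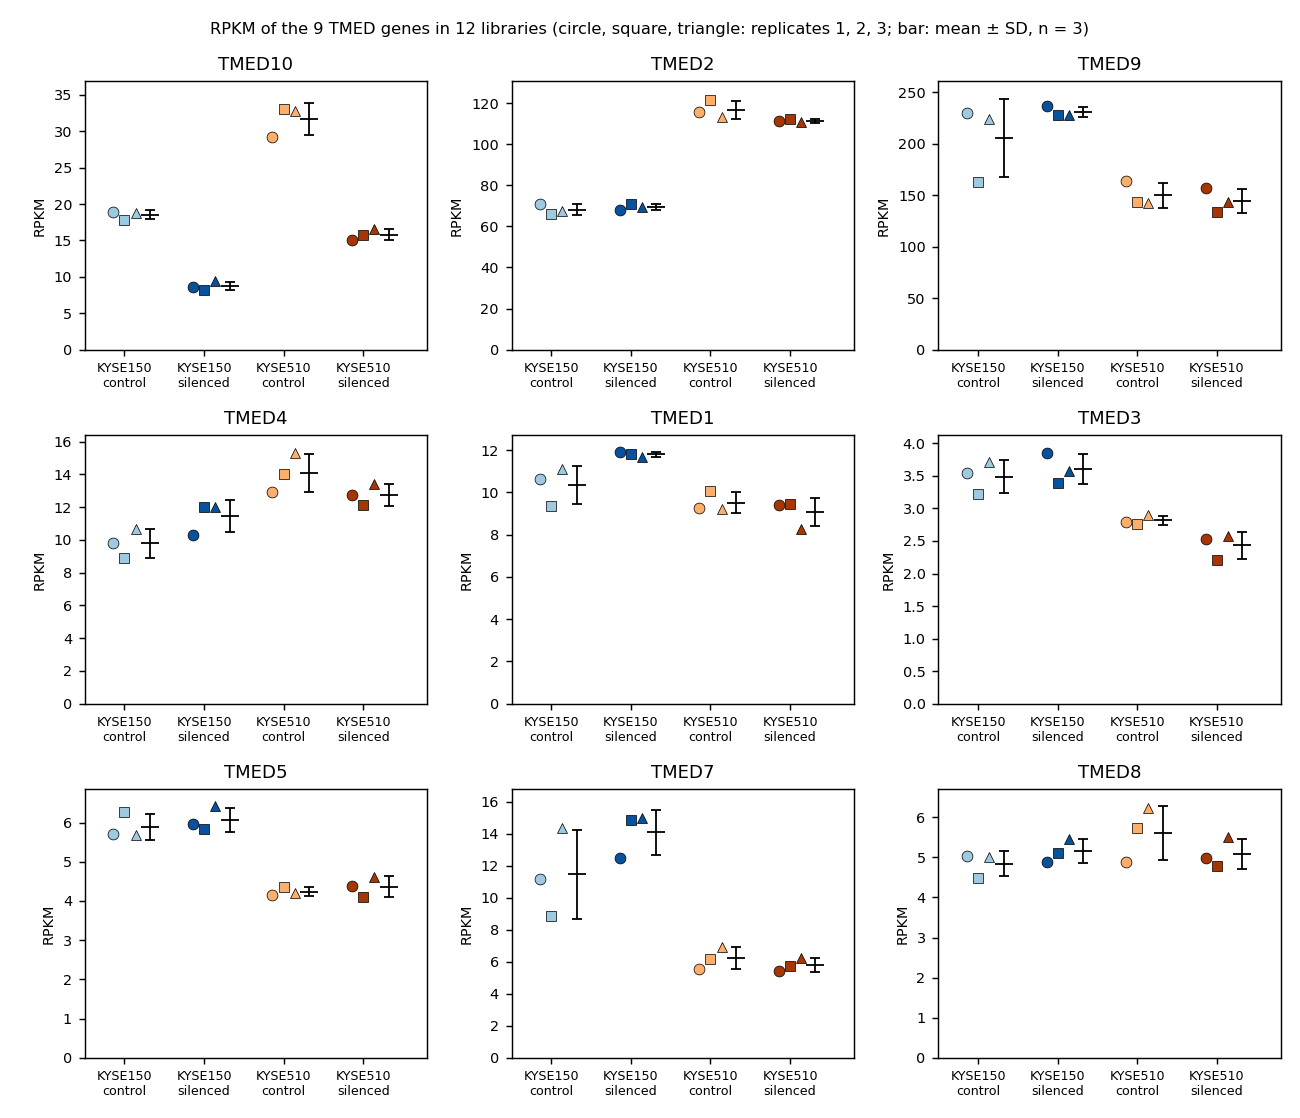
RPKM (vertical axes, from 0) of each of the 9 TMED genes in the 4 groups (horizontal axes); circles, squares and triangles are replicates 1, 2 and 3, and the bar beside them is the mean ± SD (n = 3). TMED10 shows silenced libraries at 8.23 to 9.39 RPKM against controls at 17.8 to 19.0 in KYSE150, and at 15.1 to 16.5 against 29.2 to 33.0 in KYSE510, and silenced and control libraries of TMED9, TMED4, TMED5, TMED7 and TMED8 overlap in both lines.

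A processed pseudogene, TMED10P1, is 92.7% identical to the TMED10 transcript over its 655 bases, with a longest identical run of 69 bases, so reads could be assigned to either. TMED10P1 held 1 to 25 reads per library, against 1127 or more of TMED10. Its level was 0.718 ± 0.142 RPKM in KYSE150 controls and 1.20 ± 0.186 after silencing, and 0.439 ± 0.0477 and 0.274 ± 0.175 in KYSE510 (SD, n = 3), with limma adjusted p = 0.193 and 0.862. It also lies wholly inside an exon of ZNF252P on the opposite strand. Between the 9 members themselves no identical run exceeded 23 bases (TMED4 with TMED10).

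None of the other 8 members passed the threshold (limma, Benjamini-Hochberg adjusted p under 0.05 over all genes tested) in either line. The background is low: 0.499% of the genes tested were called in KYSE150 (89 genes) and 0.0393% in KYSE510 (7 genes), so 0 of 8 is near the background. Without adjustment, 2 of the 8 had p under 0.05 in KYSE150 (TMED1 and TMED4), where 18.1% of all genes tested did, and 0 in KYSE510, where 6.35% did, so both counts are near the background. With replicate pairs as a block the background was 6.7% in KYSE150 and 0.112% in KYSE510, and the count of members called stayed at 0 of 8 in both. In KYSE150 all 8 fitted changes lay above 0, as did 66.1% of all genes tested, with a median of 0.13 against 0.08 for all genes. That sign depended on the scale: after centring library medians, which moved the median of all genes to -0.05, 4 of the 8 lay above 0 and 4 (TMED2, TMED3, TMED5 and TMED8) below, with 41.1% of all genes above. In KYSE510 1 of the 8 (TMED5) lay above 0, against 43% of all genes (50.7% after centring), and the median was -0.08 against -0.02 for all genes. When 1 library was left out, 7 of the 8 changes in each line moved by more than 1.5 times, the exceptions being TMED4 in KYSE150 and TMED3 in KYSE510.

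**Figure D2:**
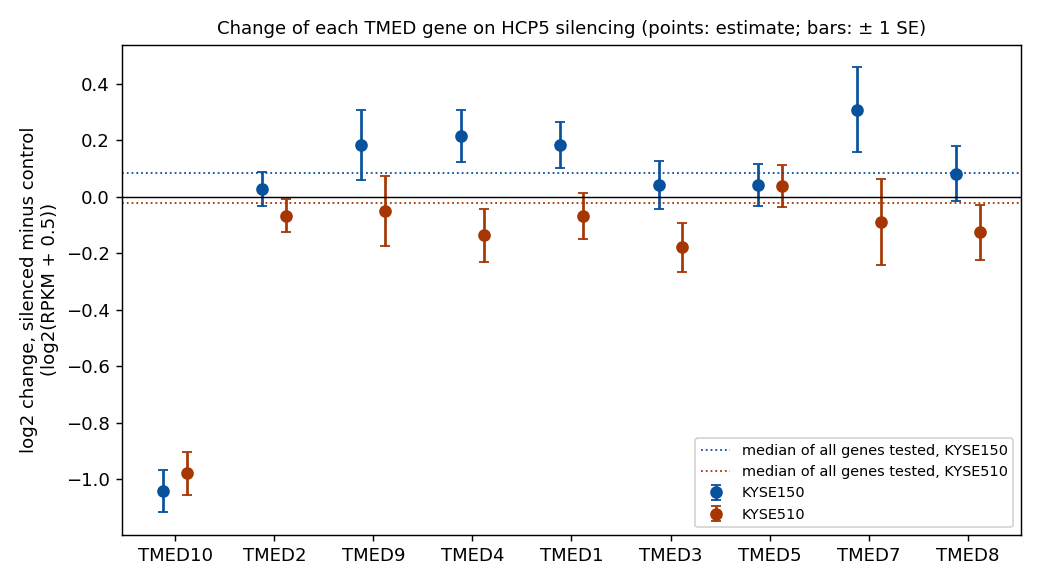
Fitted log2 change, silenced minus control (vertical axis, log2(RPKM + 0.5) scale), of each member in KYSE150 (blue) and KYSE510 (brown), with bars of ± 1 SE and dotted lines at the median of all genes tested in each line (0.08 and -0.02). TMED10 lies at -1.04 and -0.98, and the other 8 members between -0.18 and 0.31.

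TMED2, the single beta member, forms the core of p24 complexes with TMED10. It stood at 71.0, 66.0 and 67.5 RPKM in KYSE150 controls and at 68.0, 70.8 and 69.5 after silencing, with overlapping groups (log2 change 0.03, SE 0.06, limma adjusted p = 0.849). In KYSE510 controls it stood at 115, 122 and 113 RPKM and in silenced libraries at 111, 112 and 111, all below the controls, a difference of -0.07 (SE 0.06, adjusted p = 0.942). TMED2 had the smallest SE of the 9 members. The level ratio of TMED2 to TMED10, in RPKM, was 3.74, 3.70 and 3.60 in KYSE150 controls and 7.89, 8.61 and 7.41 after silencing. In KYSE510 the ratio was 3.96, 3.68 and 3.45 in controls and 7.36, 7.11 and 6.69 after silencing. The control means, 3.68 ± 0.0752 and 3.69 ± 0.255 (SD, n = 3), differed by less than the spread between replicates, although both genes were higher in KYSE510.

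Of the alpha members, TMED9 was the most abundant gene of the family in every group. KYSE150 controls had 230.1, 163 and 225 RPKM and silenced libraries 237, 228 and 228, so control replicate 2 stood apart from the other libraries of that line. The log2 change was 0.18 (SE 0.12, limma adjusted p = 0.448), and 0.02 without control replicate 2. In KYSE510, TMED9 had 164, 143 and 143 RPKM in controls and 157, 134 and 144 after silencing, with overlapping groups (-0.05, SE 0.12, adjusted p = 0.983). TMED4, the other alpha member and the one with the same tail residues as TMED9, had 9.80, 8.92 and 10.6 RPKM in KYSE150 controls and 10.3, 11.99 and 12.01 after silencing. In KYSE510 TMED4 had 12.9, 14.01 and 15.3 RPKM in controls and 12.7, 12.1 and 13.4 after silencing. Its log2 change was 0.22 (SE 0.09, adjusted p = 0.262, and 0.122 with the block) in KYSE150 and -0.14 (SE 0.09, adjusted p = 0.921) in KYSE510. The KYSE510 value was -0.08 without control replicate 3 and -0.19 without control replicate 1, and the KYSE150 value was 0.09 after centring library medians.

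Among the gamma members, TMED7, known for carrying Toll-like receptor TLR4 towards the cell surface, had 11.2, 8.84 and 14.4 RPKM in KYSE150 controls and 12.5, 14.8 and 15.0 after silencing. The controls spread widely (11.5 ± 2.77, SD, n = 3), and the log2 change of 0.31 (SE 0.15) had a limma adjusted p of 0.305. Without control replicate 2 the change was 0.14, and without control replicate 3 it was 0.48 with an adjusted p of 0.0514, so a single control library moved it by more than 1.5 times. In KYSE510 TMED7 had 5.54, 6.19 and 6.93 RPKM in controls and 5.41, 5.76 and 6.23 after silencing (-0.09, SE 0.15, adjusted p = 0.972). TMED7-TICAM2, which shares exons with it, gave 4.99 and 6.48 RPKM on average in KYSE150 controls and silenced libraries.

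TMED1, a gamma member that binds the interleukin receptor ST2, had 10.6, 9.37 and 11.1 RPKM in KYSE150 controls and 11.9, 11.8 and 11.7 after silencing. Its silenced libraries all lay above the controls, as in 13.7% of genes tested in that line, and the log2 change of 0.18 (SE 0.08) did not pass (limma adjusted p = 0.270, and 0.124 with the block). That change was 0.12 without control replicate 2, and 0.05 after centring library medians. In KYSE510 its levels were 9.26, 10.1 and 9.20 in controls and 9.42, 9.45 and 8.29 after silencing. The values of TMED1 rest on 291 to 504 reads per library, the fewest of the 9 members.

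TMED3 had 3.55, 3.21 and 3.71 RPKM in KYSE150 controls and 3.85, 3.40 and 3.57 after silencing, with overlap. In KYSE510 it had 2.80, 2.76 and 2.90 RPKM in controls and 2.52, 2.20 and 2.57 after silencing, which all lay below the controls (-0.18, SE 0.09, limma adjusted p = 0.815). Beside TMED10, TMED2 and TMED3 were the only members with silenced libraries all below controls in KYSE510, 2 of 8 against a background of 6.87%. TMED5, a further gamma member, had 5.70, 6.27 and 5.69 RPKM in KYSE150 controls and 5.96, 5.83 and 6.41 after silencing. Its KYSE510 levels were 4.15, 4.37 and 4.21 in controls and 4.38, 4.10 and 4.62 after silencing, and its log2 change was 0.04 (SE 0.07) in each line. TMED8, outside the classes, had 5.04, 4.48 and 5.01 RPKM in KYSE150 controls and 4.89, 5.10 and 5.47 after silencing. In KYSE510 TMED8 had 4.89, 5.73 and 6.22 RPKM in controls and 4.98, 4.78 and 5.51 after silencing, with overlap in both lines.

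Whether a silencing change differed between the lines was tested for the 8 members other than TMED10, and 0 passed, as did 0% of all genes tested. The difference, KYSE510 minus KYSE150, was -0.35 (SE 0.13, limma adjusted p = 0.394) for TMED4, the 1 member of 8 with an unadjusted p under 0.05, against 12.2% of all genes tested, which is near the background. It was -0.20 after centring library medians. For TMED7 the difference was -0.40 (SE 0.21, adjusted p = 0.432), -0.23 without KYSE150 control replicate 2 and -0.57 without KYSE150 control replicate 3. In pairs of same-numbered libraries, 4 of the 8 members were higher in all 3 silenced libraries of KYSE150 (37.4% of genes tested) and 4 of 8 lower in all 3 of KYSE510 (21.8%). Both TMED4 and TMED7 were higher in 3 of 3 silenced libraries than in the same-numbered controls of KYSE150 and lower in 3 of 3 in KYSE510, as were 7.79% of the genes tested. All 8 differences lay below 0, as did 67% of all genes, whose median was -0.12. After centring library medians 2 of the 8 (TMED2 and TMED5) lay above 0, and 44.2% of all genes lay below. With the block the lowest adjusted p among the 8 was 0.135.

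Levels per length were compared between genes on the RPKM scale. In KYSE150 controls the order was TMED9 (205.7 ± 37.5 RPKM, SD, n = 3), TMED2 (68.1 ± 2.57), TMED10 (18.5 ± 0.605), TMED7 (11.5 ± 2.77), TMED1 (10.4 ± 0.891), TMED4 (9.79 ± 0.865), TMED5 (5.89 ± 0.327), TMED8 (4.84 ± 0.316) and TMED3 (3.49 ± 0.252). The libraries of TMED7 and TMED1, and those of TMED1 and TMED4, overlapped in range, and the other neighbours in that order did not. In silenced KYSE150 cells TMED10 moved from the third to the sixth place, below TMED7, TMED1 and TMED4, with no overlap of range with TMED4 above it or TMED5 below it. In KYSE510 the order of controls was TMED9 (150.1 ± 12.03 RPKM), TMED2 (117 ± 4.40), TMED10 (31.7 ± 2.16), TMED4 (14.1 ± 1.18), TMED1 (9.51 ± 0.485), TMED7 (6.22 ± 0.693), TMED8 (5.62 ± 0.677), TMED5 (4.24 ± 0.114) and TMED3 (2.82 ± 0.0708). TMED7 and TMED8 alone overlapped there, and silenced KYSE510 cells kept the same order, with TMED10 still the third.

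The place of TMED3 depends on the length used. The table scales it to 19470 bases of summed exon, 13.2 times the 1475 bases of its principal transcript in GENCODE 29, while this ratio was at most 1.66 for the other 8 members. Scaled to principal transcripts, a choice made after the data were seen, TMED3 stood at 46.1 ± 3.33 RPKM of the principal transcript in KYSE150 controls and at 37.2 ± 0.935 in KYSE510 controls (SD, n = 3). All reads of the summed exons were divided by the principal length, so values on this scale are upper limits, for TMED3 above all. How many of its reads fell outside the principal transcript was not tested. On that scale TMED3 was the third in KYSE150 controls, above TMED10 at 22.3 ± 0.729, and the fourth in KYSE510 controls, just under TMED10 at 38.2 ± 2.60. In silenced cells TMED10 then took rank 7 in KYSE150 and rank 5 in KYSE510.

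Summed over the 9 members, the family came to 338 ± 44.0 RPKM in control and 361 ± 1.47 in silenced KYSE150 cells, and to 341 ± 7.31 and 311 ± 11.2 in KYSE510 (SD, n = 3). TMED9 and TMED2 together made up 76.7% to 84.0% of that sum in every library. TMED10 supplied 5.18%, 6.20% and 5.19% of the sum in KYSE150 controls and 2.37%, 2.28% and 2.60% after silencing. In KYSE510 it supplied 8.39%, 9.68% and 9.84% in controls and 4.68%, 5.26% and 5.31% after silencing. These shares follow from the lower TMED10 and are a description. The sum without TMED10 was 320 ± 43.4 RPKM in KYSE150 controls, where replicate 2 was low at 269.6, and 353 ± 1.60 in silenced cells. The lowest silenced library (351) lay above the highest control (347), an order found for 13.7% of single genes tested in that line. These sums were not rescaled. After centring library medians, 4 of the 8 other members lay above 0 and 4 below, with a median log2 change of 0.003. That median weighs the 8 alike and does not describe a rescaled sum. TMED9 alone averaged 60.5% of the sum of all 9 in KYSE150 controls and 63.9% after silencing. In KYSE510 the sum without TMED10 was 309 ± 9.19 and 296 ± 11.5 (SD, n = 3), with overlapping groups.

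**Figure D3:**
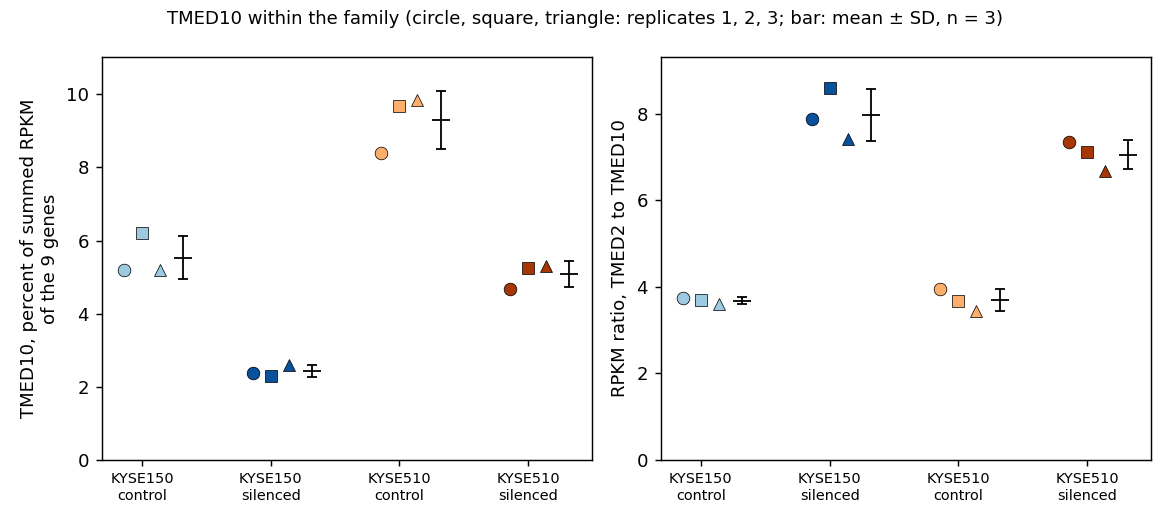
Left, the share of TMED10 in the summed RPKM of the 9 genes (percent); right, the RPKM ratio of TMED2 to TMED10, both from 0, per library in the 4 groups; symbols are replicates 1 to 3 and bars the mean ± SD (n = 3). The control ratios lie between 3.45 and 3.96 in both lines and the silenced ratios between 6.69 and 8.61, while the share of TMED10 in silenced KYSE510 cells (4.68% to 5.31%) reaches the level of KYSE150 controls (5.18% to 6.20%).

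The control libraries of the lines were compared for all 9 members, since this contrast was not used in choosing them. Of the 9, 7 passed, 3 higher and 4 lower in KYSE510, against 62% of all genes tested (28.3% higher and 33.7% lower), so the count is near the background. TMED2 and TMED10, the partners named above, were higher in KYSE510 by nearly the same amount, 0.77 (SE 0.06, limma adjusted p = 5.8e-07) and 0.76 (SE 0.08, adjusted p = 5.3e-06) on the log2 scale. TMED4 was higher by 0.50 (SE 0.09, adjusted p = 0.000645). For TMED2, TMED10 and TMED4 no control library of KYSE150 reached the lowest of KYSE510. For TMED7, TMED5 and TMED3, described next, no control library of KYSE510 reached the lowest of KYSE150. The share of all genes with such an order was not counted, so nothing is read from it.

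Lower in KYSE510 were TMED7, by -0.81 (SE 0.15, limma adjusted p = 0.000651), TMED9, by -0.44 (SE 0.12, adjusted p = 0.00919), TMED5, by -0.43 (SE 0.07, adjusted p = 0.000406), and TMED3, by -0.26 (SE 0.09, adjusted p = 0.0180). The alpha members thus went in opposite directions, TMED4 higher and TMED9 lower, and 3 of the 4 gamma members were lower. The ranges of TMED9 overlapped, with KYSE150 control replicate 2 at 162.5 RPKM and KYSE510 control replicate 1 at 163.9. TMED1 (-0.12, SE 0.08, adjusted p = 0.240) and TMED8 (0.19, SE 0.10, adjusted p = 0.110) did not pass. The call of TMED3 was lost in voom on recovered reads (adjusted p = 0.0728) and without KYSE150 control replicate 1 (0.0540), KYSE150 control replicate 3 (0.0582) or KYSE510 control replicate 2 (0.0532). TMED8 passed after centring library medians (0.0205), after quantile normalization (0.0173), in voom (0.00626) and without KYSE510 control replicate 1 (0.0249). Differences of origin and of culture between the lines cannot be told apart in this contrast.

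**Figure D4:**
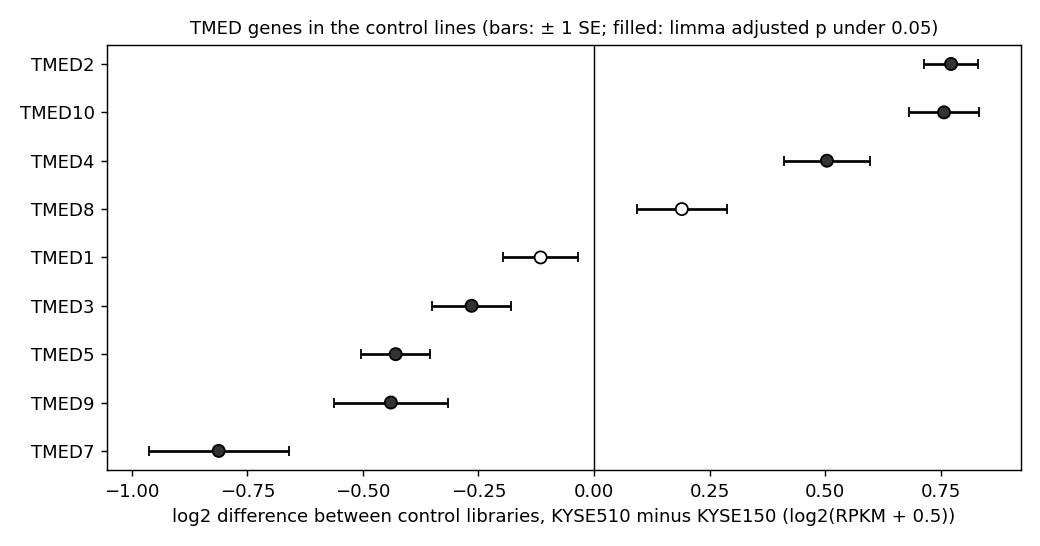
Log2 difference between control libraries, KYSE510 minus KYSE150 (horizontal axis, log2(RPKM + 0.5) scale), of each member with bars of ± 1 SE; filled points have a limma adjusted p under 0.05. TMED2 (0.77), TMED10 (0.76) and TMED4 (0.50) lie to the right, and TMED7 (-0.81) lies farthest to the left.

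The rest of the early secretory pathway was followed with 6 lists of 110 genes in all, of which 106 passed the filter on low values. They are the COPII coat (14 of 15 tested), the COPI coat (15 of 16), other cargo receptors (17 of 19), GPI anchor synthesis and remodelling (28 of 28), Golgi matrix proteins and ER-Golgi SNAREs (17 of 17) and the ER stress response (15 of 15). TMED6, the p24 gene kept among the other receptors, was at 0.028 to 0.473 RPKM and was not tested. In neither line did a gene of these lists pass (0 of 106 in each). Without adjustment, p was under 0.05 for 21 genes higher and 1 lower in KYSE150, and for 1 higher and 5 lower in KYSE510. These are 20.8% and 5.66% of the 106 genes, near the 18.1% and 6.35% of all genes tested.

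List medians in KYSE150 were 0.19 for the COPII coat, 0.21 for the COPI coat, 0.16 for other cargo receptors, 0.18 for the GPI anchor list, 0.07 for the Golgi list and 0.12 for the ER stress list, against 0.08 for all genes tested. Fitted changes above 0 in KYSE150 numbered 12 of 14 for COPII, 13 of 15 for COPI, 15 of 17 for the other receptors, 27 of 28 for GPI anchors, 10 of 17 for the Golgi list and 8 of 15 for ER stress, 80.2% of the 106 against 66.1% of all genes. After centring library medians they were 57.5% against 41.1%. In KYSE510 they numbered 3 of 14, 2 of 15, 5 of 17, 8 of 28, 6 of 17 and 7 of 15 in the same order, 29.2% against 43%, and after centring 36.8% against 50.7%. In KYSE510 the list medians ran from -0.08 (COPI coat) to -0.03 (Golgi list), against -0.02 for all genes. With the block, 5 of the 106 passed in KYSE150, all higher, and 0 in KYSE510. They were SAR1A, the GTPase that starts COPII assembly (log2 change 0.40, SE 0.05, limma adjusted p = 0.0195), TFG, which organises COPII at ER exit sites (0.68, SE 0.13, adjusted p = 0.0357), DPM1, a subunit of dolichol-phosphate mannose synthase (0.78, SE 0.14, adjusted p = 0.0339), CNIH1, a cargo receptor of the cornichon family (0.79, SE 0.12, adjusted p = 0.0256), and TMEM8A, a lipase that acts on GPI anchors (0.46, SE 0.07, adjusted p = 0.0230). Without the block their adjusted p was 0.102, 0.111, 0.117, 0.0739 and 0.193, and 5 of 106 (4.72%) is near the blocked background of 5.04% of genes called higher. No gene of the lists was called lower in KYSE150 with the block.

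**Figure D5:**
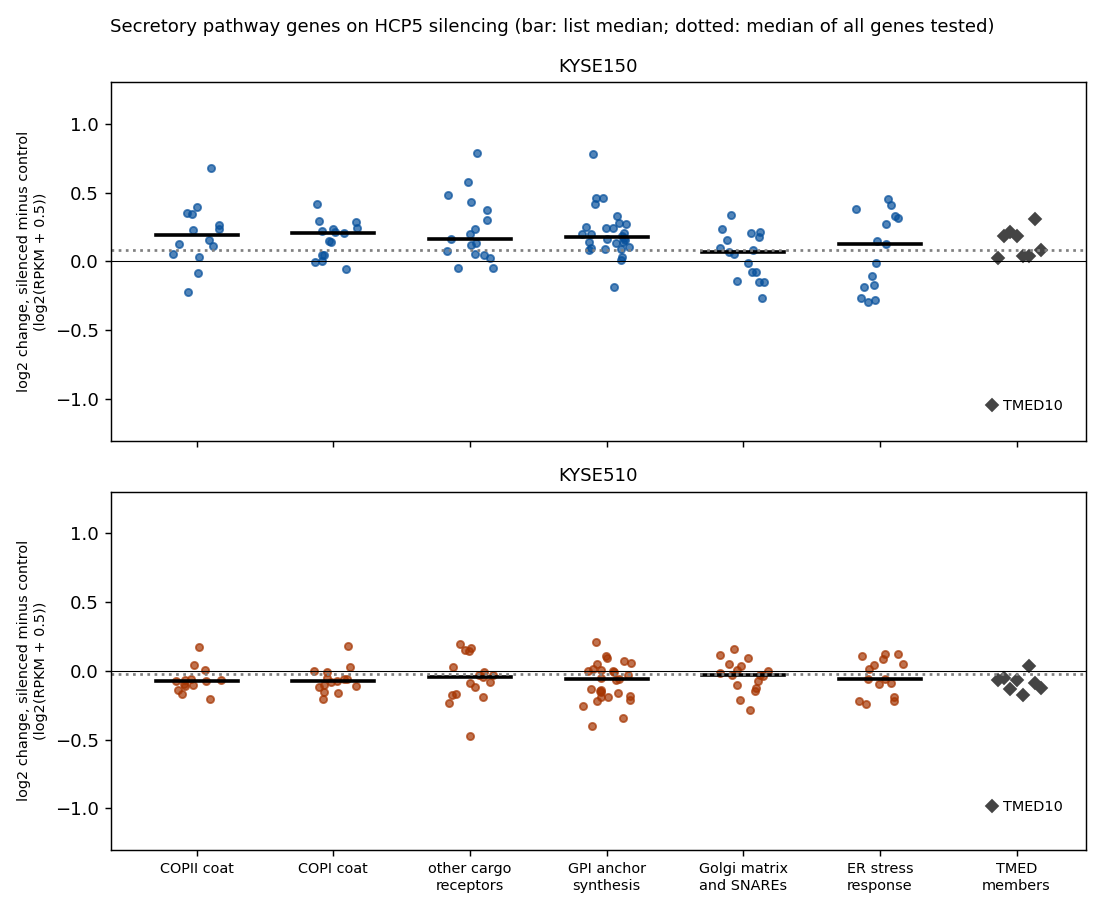
Fitted log2 change, silenced minus control (vertical axes, log2(RPKM + 0.5) scale), of each tested gene of the 6 secretory pathway lists and of the 9 TMED members (diamonds) in KYSE150 (upper) and KYSE510 (lower); thick bars are list medians and the dotted line the median of all genes tested. TMED10, which was chosen for its fall in both lines, lies at -1.04 and -0.98, below every other plotted gene, and nothing is read from that place.

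Between the control lines 23 of the 106 list genes were higher in KYSE510 and 46 lower, 65.1% in all against 62% of genes tested. The largest difference in each list was that of ARCN1, the delta subunit of COPI (52.3 ± 1.12 RPKM in KYSE150 and 13.7 ± 0.389 in KYSE510), CNIH1 (2.86 ± 0.699 and 12.7 ± 1.65), CRELD2, an ER stress target (3.08 ± 0.651 and 11.0 ± 1.28), BNIP1, a SNARE of the retrograde route (8.25 ± 0.529 and 2.58 ± 0.106), PGAP2, which remodels GPI anchors (1.06 ± 0.148 and 3.31 ± 0.389), and SEC24C, a cargo-binding COPII subunit (20.8 ± 1.48 and 9.93 ± 0.197; all SD, n = 3). Their log2 differences were -1.89, 1.98, 1.69, -1.51, 1.29 and -1.03. All 6 exceeded the largest difference of a TMED member, which was that of TMED7.

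The genes most like TMED10 over the 12 libraries were found among 14019 genes with a mean of at least 1 RPKM, by the root mean square difference of log2 values centred on the mean of each line. For scale, a gene with no change at all would have a difference of 0.51. The nearest was VAMP3, a SNARE of recycling endosomes (difference 0.13), at 6.24 ± 1.08 and 3.11 ± 0.281 RPKM in control and silenced KYSE150 cells and at 16.4 ± 0.845 and 7.02 ± 0.452 in KYSE510. TNIP2, an inhibitor of NF-kappa-B signalling (0.17), went from 22.3 ± 1.10 to 12.01 ± 0.580 RPKM in KYSE150 and from 15.6 ± 1.66 to 10.2 ± 0.848 in KYSE510. PEX3, needed for making peroxisomes (0.19), went from 8.39 ± 0.977 to 4.06 ± 0.254 and from 7.94 ± 0.280 to 5.34 ± 0.330 RPKM (all SD, n = 3). The pseudogene NUS1P1 (0.21) and XXbac-BPG181B23.6 (0.24), which shares 157 bases with HCP5 on the opposite strand, came next. The other 8 members had differences of 0.48 to 0.59 from TMED10, against 0.13 to 0.24 for these 5 genes. The measure rests on the same contrasts that picked TMED10 and is a description.

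Promoters were searched, and that of TMED10 is shown, because the family was chosen for the change of this gene. RefSeq windows of 300 bases (250 before to 50 after the start, GRCh38.p14) were matched for 7 of the 9 members (TMED1, TMED2, TMED3, TMED5, TMED7, TMED8 and TMED10), in 8 windows, since TMED1 has 2. The E-box CACGTG, searched on both strands of which it is its own complement, was found in 1 of the 8 windows, that of TMED10, and in 7.26% of 35116 promoters (2548). It starts 30 bases before the RefSeq start of TMED10 (chr14:75176612) and 11 bases before the end of the span given above, which is the start of this minus-strand gene there. It lies in the stretch at chr14:75176625-75176654 on the minus strand, where capitals mark the E-box.
TMED10: tcagaggtgagtCACGTGggtccccccggt

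The ER stress element, CCAAT and CCACG with 9 bases of any kind between them, searched on both strands, was found in none of the 8 windows and in 0.0769% of all promoters (27). A match is a run of letters and says nothing of binding, and no match says only that these letters are not in the window.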

How the data were processed

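The deposited table gives RPKM for 38516 genes in 12 libraries, with the position and summed exon length of each gene, and all columns of values were mapped (0 were not). Per the submitters' processing notes, HISAT2, DESeq and GRCh38 were used. The counting settings are not given in the sources used here. The authors' RPKM were whole multiples of a single step per library for 100% of values above 0. The tolerance was 0.01 reads times the square root of the count, which high counts meet in any case. Reads were recovered with that step, 20035025 to 28202422 per library.

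Values were taken as log2(RPKM + 0.5), which understates changes of low genes. A model with 4 group means over 12 libraries was fitted with limma 3.58.1 in R 4.3.3 (eBayes with trend, 8 residual degrees of freedom), two-sided, with Benjamini-Hochberg adjustment over 17823 genes and a threshold of 0.05. The script was tested on simulated counts, drawn independently for each library with no replicate pairs. That test does not cover pairing, and its outcome is not given here. Same-numbered control and silenced libraries deviated together (correlation across genes 0.147 to 0.415 in 6 pairs, -0.385 to 0.184 in 12 others). These ranges overlap: KYSE150 control replicate 2 had 0.184 with silenced replicate 1 and 0.147 with silenced replicate 2. The numbers, from the titles, may thus pair libraries within a line, but this is not certain. The main fit left the pairing out and called 89 genes in KYSE150, against 1194 with it. In 1 alternative it was a block (4 residual degrees of freedom). The others were pseudocounts of 0.1 and 1, no filter, centring, quantile normalization, voom on recovered reads with TMM factors, and leaving out each library.

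The members and lists were chosen with earlier results of these data known. Genes named beside the members are those of a list past the threshold in a silencing contrast, the 1 per list with the largest difference between control lines, and the 5 nearest to TMED10. The 5 list genes of the block fall outside this rule and were named after their values were seen. HCP5, TMED10P1, TMED7-TICAM2 and TMED6 are named for checks.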

Additional observations from a re-analysis of the deposited data

How the results depend on the processing

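For the 8 members other than TMED10, the count past the threshold stayed at 0 in KYSE150, in KYSE510 and in the difference between lines under all 19 alternatives, the replicate block included, with a lowest limma adjusted p of 0.0514 (TMED7 in KYSE150 without control replicate 3). Between control lines the count ranged from 6 to 8 of 9 when a library was left out, against 7. The log2 change of TMED10 was between -1.19 and -1.002 in KYSE150, and between -1.04 and -0.93 in KYSE510. In the first line it was -1.17 after centring, -1.14 after quantile normalization and -1.19 in voom. Its difference between the lines was 0.06, and 0.22, 0.21 and 0.24 in those 3 settings.

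The count of secretory pathway genes past the threshold in KYSE150, 0 of 106, was 1 after quantile normalization, 1 in voom and 5 with the replicate block. Of all 17823 genes tested, 154, 161 and 1194 were called in these settings, in the same order. Leaving out 1 library gave 0 to 11. The 11 (10 higher and 1 lower) came without KYSE150 control replicate 3, where 1291 of 17652 genes in all were called, against 89 of 17823. The cause was not tested. In KYSE510 the count was 0 under all 19 alternatives. With 1 library left out, the family share of TMED10 averaged 5.19% to 5.70% in KYSE150 controls and 2.33% to 2.49% after silencing. In KYSE510 this mean share ran from 9.03% to 9.76% in controls and from 4.97% to 5.28% after silencing. All genes called in KYSE150 were 67 higher and 22 lower, and 54 and 62 after centring. Low reads limit HCP5 (26 to 147) and TMED10P1 (1 to 25). TMED10, with 1127 reads or more, is limited by the 3 libraries of each group.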
